A study of Mus musculus with 8 samples.

Results

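Glycolysis splits glucose into pyruvate in the cytosol, and the pentose phosphate pathway branches from its first intermediate to make NADPH and ribose for nucleotides. Activated CD8 T cells are known for a high rate of glycolysis with release of lactate even when oxygen is present, and they carry glucose in through the transporters encoded by Slc2a1 and Slc2a3. This set of 37 genes covers those transporters, the enzymes of glycolysis, lactate dehydrogenase and lactate export, the kinases that set flux at phosphofructokinase and pyruvate dehydrogenase, and the pentose phosphate enzymes. Members were taken as the probe sets to which the platform annotation gave exactly 1 symbol from the list, and the brightest probe set on average stood for its gene. On this rule 31 of the 37 were measured, among 12393 genes in the whole table.

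The samples were activated CD8 T cells of OT-1 mice, which carry a transgenic T cell receptor for an ovalbumin peptide. All 8 co-cultures used the mouse ovarian cancer line ID8 loaded with ovalbumin peptide, 30 T cells to 1 target cell, for 4 h, before the T cells were taken off magnetically. Cells of 4 mice, A to D, were split between ID8 cells made to overexpress PD-L1, which engages the inhibitory receptor PD-1, and ID8 cells depleted of it, with 1 array for each mouse and target. How PD-L1 was raised or removed, and the age and sex of the mice, are not given in the sources used here.

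Of the 31 genes measured, 28 had a mean above 6.87, the 40th percentile of all probe sets that were not controls, and were tested with 8003 genes in all. Pgam2, the muscle form of phosphoglycerate mutase, lay between 6.17 and 6.80 on the log2 scale over the 8 arrays. Eno2, an enolase of neurons, lay between 5.30 and 5.91, and Pdk2, a pyruvate dehydrogenase kinase, between 5.29 and 5.52. These 3 genes were under the filter and were not tested. Hk3, Gpi1, Gapdh, Eno1, Pfkfb4 and G6pdx had no single-symbol probe set in the annotation and were not analysed here; for Gapdh, 2 probe sets carried several symbols. The isomerase step after hexokinase, glyceraldehyde phosphate dehydrogenase, the main enolase and the entry enzyme of the pentose phosphate pathway are therefore missing from what follows.

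All values are deposited log2 expression values, where 1 unit is a 2-fold step. The labelled cell type was borne out by its markers: 7 of 8 CD8 T cell markers were measured, and their means over the arrays ran from 10.48 to 13.99. The mean of these 7 was between 12.28 and 12.36 with PD-L1-overexpressing and between 12.25 and 12.37 with PD-L1-depleted targets. B cell, erythroid and most myeloid markers lay under the filter, namely 5 of 5, 3 of 3 and 4 of 6 measured. Markers of the ID8 target cells gave signal, with 10 of 16 measured markers above the filter. The mean of the 16 was 7.41 (A), 6.94 (B), 7.77 (C) and 7.72 (D) with overexpressing targets. With depleted targets it was 6.92 (A), 7.65 (B), 7.33 (C) and 7.28 (D), so mouse B ran opposite to the other mice. Target labels were taken from the titles as given, and whether those of mouse B are right was not tested. No detection calls came with the values, and the number of arrays, 4 per target, limits the precision.

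**Figure D1:**
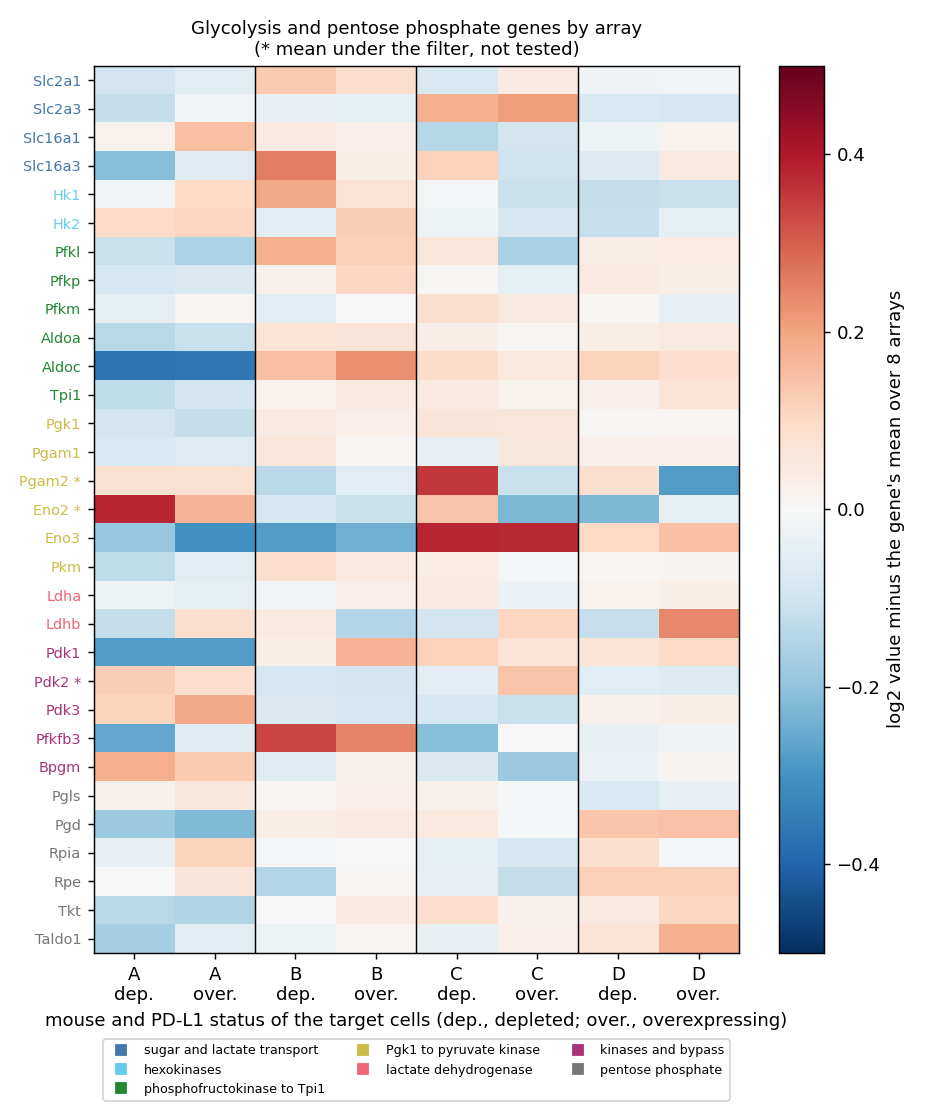
Log2 value of each of the 31 measured genes on each array, minus that gene's mean over the 8 arrays (colour; red above, blue below). Columns are mice A to D, each with PD-L1-depleted and then PD-L1-overexpressing targets. Label colours mark the gene's role, and the columns of mouse A are blue for Aldoc, Pdk1, Pgd and Tkt and red for Pdk3 and Bpgm.

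The first comparison asked whether these genes differ in T cells that met targets with much or little PD-L1. None of them passed the test. Of the 28 tested genes 19 were higher and 9 lower where the target overexpressed PD-L1, and their median was 0.0084 against 0.0033 over all genes tested. Differences are overexpressing minus depleted, from a limma model in which the mouse was a block. The fit called 0 of the 28 genes and 0% of all genes (smallest adjusted p = 0.9995). An unadjusted p under 0.05 was reached by 1 of the 28 and by 2.85% of all genes. The outermost 95% bound among the 28 was 1.24-fold, for Ldhb. These counts and bounds take the target labels of mouse B as given, where the mean of the target cell markers was reversed. Without mouse B, 1.9% of all genes were called higher and 0.3% lower.

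Taldo1, transaldolase of the non-oxidative pentose phosphate branch, had the smallest p of the set. Its values with PD-L1-overexpressing targets were 10.69 (A), 10.76 (B), 10.77 (C) and 10.93 (D). With PD-L1-depleted targets they were 10.58 (A), 10.72 (B), 10.71 (C) and 10.82 (D). Each mouse was higher with the overexpressing target, while the ranges of the groups overlapped. The difference was 0.080 (SE 0.030, limma adjusted p = 0.9995), or 1.06-fold. Taldo1 was the single gene of the 28 that went the same way in 4 of 4 mice, which 10.5% of all tested genes did.

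Pfkl, the liver-type subunit of phosphofructokinase, pointed the other way. It read 11.43 (A), 11.70 (B), 11.42 (C) and 11.62 (D) with overexpressing targets. With depleted targets it read 11.47 (A), 11.77 (B), 11.64 (C) and 11.62 (D). The groups overlapped, and the mean difference of -0.082 (SE 0.037, limma adjusted p = 0.9995) came mostly from mouse C, at -0.22. The other subunits differed by 0.0084 (Pfkp) and 0.0080 (Pfkm).

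Pfkfb3, which makes the fructose bisphosphate that activates phosphofructokinase, differed by 0.086 (SE 0.055). Its values with overexpressing targets were 9.20 (A), 9.51 (B), 9.27 (C) and 9.25 (D). With depleted targets they were 9.01 (A), 9.60 (B), 9.05 (C) and 9.23 (D). It was higher with overexpressing targets in A, C and D and lower in B, and the groups overlapped. A dimmer Pfkfb3 probe set differed by 0.098 (A), -0.041 (B), -0.13 (C) and -0.032 (D), with a mean of -0.026, so the direction depends on the probe set. Slc16a1, the lactate and pyruvate carrier MCT1, read 11.24 (A), 11.11 (B), 10.996 (C) and 11.11 (D) with overexpressing targets. With depleted targets it read 11.11, 11.13, 10.95 and 11.07 in the same order, a difference of 0.051 (SE 0.032). Hk2, the inducible hexokinase, read 11.58 (A), 11.60 (B), 11.39 (C) and 11.42 (D) with overexpressing targets. With depleted targets it read 11.57, 11.41, 11.44 and 11.35 in the same order, a difference of 0.051 (SE 0.038). None of these 3 genes passed (limma adjusted p = 0.9995 for each).

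For the 3 genes with means above 14 the group means lay within 1 SD of each other. Pgk1, phosphoglycerate kinase, averaged 14.60 ± 0.079 with overexpressing and 14.61 ± 0.069 with depleted targets (SD, n = 4 each). Aldoa, the main aldolase, averaged 14.48 ± 0.078 and 14.48 ± 0.094 (SD, n = 4 each). Ldha, the lactate dehydrogenase subunit of glycolytic cells, averaged 14.39 ± 0.037 and 14.40 ± 0.031 (SD, n = 4 each). These SDs include the differences between mice. Paired by mouse, the differences were -0.011 (Pgk1, SE 0.014), 0.0027 (Aldoa, SE 0.015) and -0.011 (Ldha, SE 0.019). Slc2a1 and Slc2a3, the glucose transporters, differed by 0.029 (SE 0.028) and 0.027 (SE 0.023). The 3 enzymes sit close to the upper end of the scale, 15.24, where differences can be compressed.

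**Figure D2:**
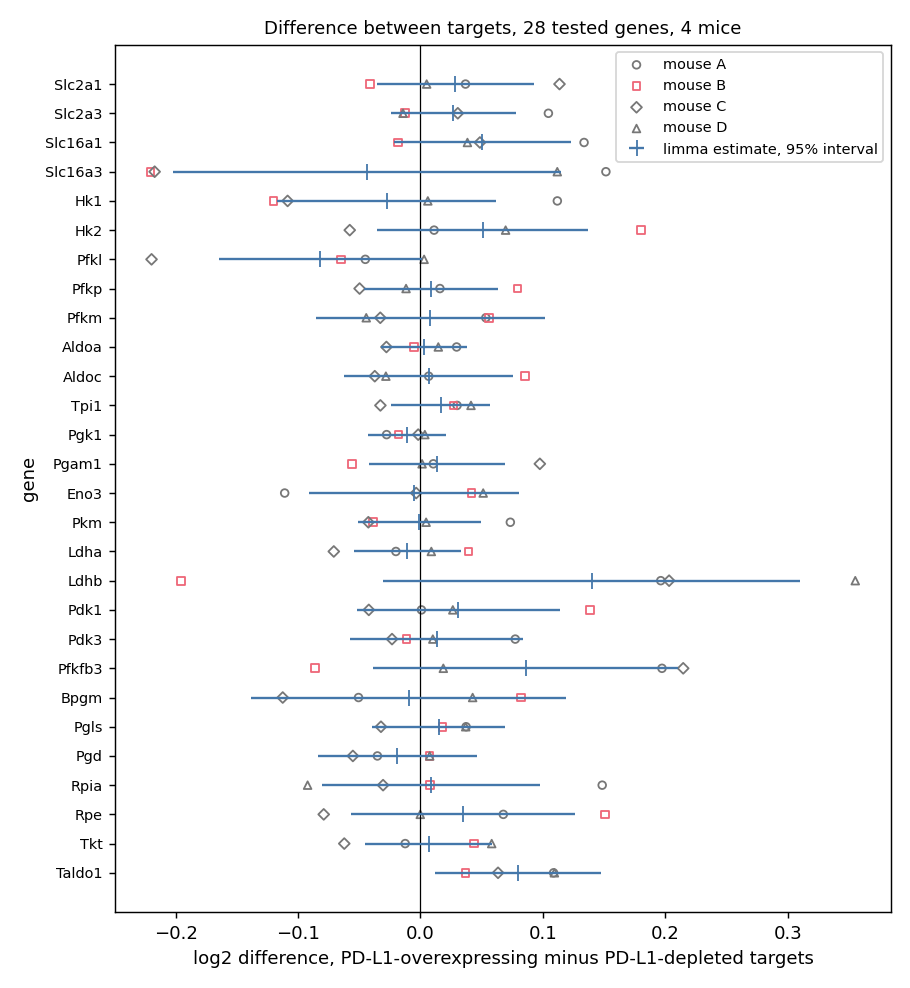
Log2 difference between targets (overexpressing minus depleted) for the 28 tested genes. Open symbols are the 4 mice, with mouse B in red; blue marks are the limma estimate with its 95% interval. Intervals include 0 for each gene but Taldo1, and Ldhb shows mouse B at -0.20 against 0.20 to 0.36 in the others.

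Ldhb, the lactate dehydrogenase subunit of cells that oxidise lactate, was a gene in which mouse B stood against the others. With overexpressing targets it read 9.92 (A), 9.70 (B), 9.95 (C) and 10.08 (D). With depleted targets it read 9.73 (A), 9.89 (B), 9.75 (C) and 9.73 (D). The overexpressing target was higher in A, C and D, and the depleted target was higher in B. The mean difference was 0.14 (SE 0.075, limma adjusted p = 0.9995).

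Ldhb has 4 probe sets with a single symbol, and each of them gave the same pattern. Over these probe sets the difference ran from 0.15 to 0.26 in mouse A, from 0.20 to 0.46 in C and from 0.33 to 0.55 in D. In mouse B it ran from -0.42 to -0.20. Probe sets of 1 gene read the same RNA, so they are not replicates. For Ldha the values were -0.020 (A), 0.039 (B), -0.071 (C) and 0.0089 (D).

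Of the 16 measured markers of the target cells, 8 had the sign of Ldhb in each mouse and 8 did not. Of the 10 above the filter, 7 did. The share of all tested genes with these signs was not counted, so these counts have no background beside them. For the mean of the 16 measured markers the difference was 0.49 in A, -0.71 in B and 0.44 in both C and D. Upk3b, a surface protein of mesothelial cells, was the widest of the 8 at 1.67 (A), -2.29 (B), 1.89 (C) and 1.82 (D), and Krt19, a keratin, the narrowest at 0.25 (A), -0.54 (B), 0.11 (C) and 0.061 (D). Cav1, the caveolin coat protein and 1 of the other 8, gave 0.023 (A), 0.020 (B), -0.42 (C) and -0.17 (D). Whether target cell RNA had a part in the Ldhb readings was not tested. Without mouse A, C or D, limma called 0 of the 28 genes between targets. Mouse B was the animal with the opposite sign for Ldhb, so a small p without it gives no separate support. Without mouse B, limma called 1 of the 28 genes, Ldhb, at 0.25 (SE 0.042, adjusted p = 0.00137) and 1.19-fold. Of all genes, 1.9% were called higher and 0.3% lower in the fit without mouse B. In that fit Pfkfb3 differed by 0.14 (SE 0.048, adjusted p = 0.179) and Taldo1 by 0.094 (SE 0.034, adjusted p = 0.223), and neither passed.

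**Figure D3:**
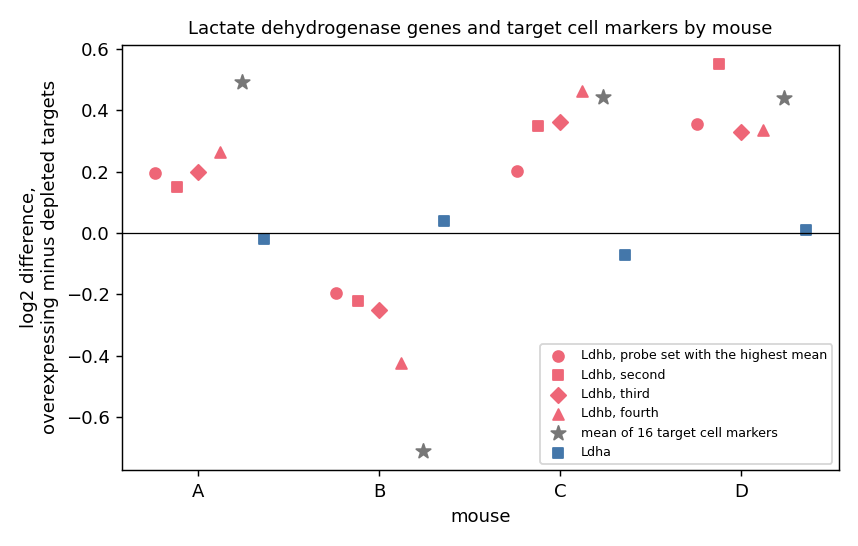
Log2 difference between targets (overexpressing minus depleted) by mouse for the 4 Ldhb probe sets (red), Ldha (blue) and the mean of 16 target cell markers (grey stars). In mice A, C and D the Ldhb probe sets lie between 0.15 and 0.55, and in mouse B between -0.42 and -0.20, while Ldha stays between -0.071 and 0.039.

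The animals were compared next. Here many of the genes changed: 18 of the 28 genes differed between mice (limma, F test adjusted for target), where 29.3% of all genes did. Mouse A was the lowest animal for 16 of the 28, against 27.0% of all tested genes. Mouse B was the highest for 11, against 21.3%. Differences were small, with a median range of 0.20 between the highest and lowest mouse over the 28 genes and 0.19 over all genes. Each mouse gave 1 array per target, so animals were judged against the difference between the arrays of 1 animal. With this design, differences between animals cannot be told apart from differences between their cell preparations.

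Set against the mean of the other 3 mice, mouse A had 16 of the 28 genes lower and 4 higher (limma adjusted p under 0.05). Over all genes 12.7% were lower and 18.1% higher. The median of the 28 was -0.11, and that of all genes 0.022. Both arrays of mouse A lay below the 6 other arrays for 11 genes and above them for 2, which held for 13.9% and 22.3% of all genes. The 20 calls kept their direction under quantile normalisation and under centring of each array on its median, where 13 and 14 of the lower and 3 and 4 of the higher calls held. Fewer held without a trend of variance with level, 10 lower and 2 higher, and without mouse D, 12 lower and 1 higher.

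Of the 7 CD8 T cell markers, 4 were also lower in mouse A and 1, Cd2, was higher, and their mean was 12.27 in A and 12.35 to 12.36 in the others. Of the 10 tested target cell markers 2 were called lower in mouse A and 0 higher. Over all genes these shares were 12.7% and 18.1%. The difference of mouse A was negative for 10 of these 10 markers, with a median of -0.44 against 0.022 over all genes. Mouse A was the lowest animal for 9 of them, against 27.0% of all genes. Of the 2 myeloid markers above the filter, Fcer1g, a myeloid and NK cell receptor chain, read 7.44 and 7.23 in mouse A against 8.50 to 9.32 in the others. The second, Csf1r, differed by -0.031 in mouse A and did not pass (limma adjusted p = 0.825). The part of these differences in the metabolic genes was not tested. In bulk RNA fewer cells of a type and less RNA per cell cannot be told apart.

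Glucose entry and the first step gave calls in different directions in mouse A, and each call was lost when certain other mice were left out. Both glucose transporters were called lower. Slc2a1 read 12.13 to 12.17 in mouse A and 12.15 to 12.35 in the others. Mouse A and mouse C overlapped, and the difference from the other mice was -0.10 (SE 0.033, limma adjusted p = 0.0427). Without mouse B or D this call was lost (adjusted p = 0.111 and 0.0647). Slc2a3 was called lower, at -0.088 (SE 0.026, adjusted p = 0.0316), but its mean was 13.66 in A, 13.68 in B, 13.64 in D and 13.92 in C. Without mouse C the difference of A on this probe set was -0.0025 (adjusted p = 0.961). The dimmer Slc2a3 probe sets differed in this. One read 13.07 and 13.01 in A and overlapped B and D, at 13.05 to 13.10. Another read 11.22 and 11.20 in A and 11.23 to 11.30 in B and D. The dimmest read 10.79 and 10.83 in A and 10.845 to 10.91 in B and D. Hk2 gave 11.58 and 11.57 in mouse A, and 1 array of mouse B, at 11.60, was higher. It was called higher in A, by 0.14 (SE 0.044, limma adjusted p = 0.0417), although it did not pass the F test over the 4 mice (adjusted p = 0.0739), and the call was lost without mouse C or D (adjusted p = 0.0633 and 0.165). Hk1, the constitutive hexokinase, differed by 0.059 in mouse A (adjusted p = 0.368).

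The steps from phosphofructokinase to triose phosphate were lower in mouse A for 5 of 6 genes, against 12.7% of all genes. Aldoc, an aldolase best known from brain, had the largest difference among the 28. It read 10.82 with each target in mouse A. The other arrays read 11.41 and 11.33 in B, 11.23 and 11.27 in C and 11.26 and 11.29 in D, with overexpressing and depleted targets. Mouse A did not overlap the others and was 1.40-fold lower, a difference of -0.48 (SE 0.035, limma adjusted p = 1.65e-05).

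Aldoa read 14.37 and 14.34 in mouse A, 14.55 and 14.55 for B, 14.49 and 14.52 for C and 14.53 and 14.51 for D. All arrays of mouse A were below the rest, at -0.17 (SE 0.018, limma adjusted p = 0.000171). Tpi1, triose phosphate isomerase, read 13.83 and 13.80 in mouse A, 13.98 and 13.95 for B, 13.95 and 13.98 for C and 13.996 and 13.95 for D. It was likewise below the rest, at -0.15 (SE 0.021, adjusted p = 0.000806). Pfkl differed by -0.18 (SE 0.042) with an overlap with 1 array of mouse C, and Pfkp, the platelet-type subunit, by -0.11 (SE 0.028) without overlap. The Pfkp call was lost without mouse D (adjusted p = 0.0667). Pfkm differed by -0.023 and did not pass (adjusted p = 0.752).

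In lower glycolysis, from phosphoglycerate kinase to pyruvate kinase, 4 of 4 tested genes were called lower in mouse A, against 12.7% of all genes. Pgk1 read 14.48 and 14.51 in mouse A, 14.63 and 14.65 for B, 14.66 and 14.67 for C and 14.61 and 14.61 for D. The arrays of mouse A were the lowest, at -0.14 (SE 0.016, limma adjusted p = 0.000260). Pkm, pyruvate kinase, differed by -0.12 (SE 0.026) and Pgam1, phosphoglycerate mutase, by -0.093 (SE 0.028), both without overlap. Pgam1 did not pass the F test over the 4 mice (adjusted p = 0.12), and its call was lost without mouse D (adjusted p = 0.0962). Ldha differed by -0.048 (SE 0.022, adjusted p = 0.136) and Ldhb by -0.026 (SE 0.087, adjusted p = 0.852). Neither dehydrogenase subunit passed.

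Eno3, the enolase of muscle, set mice A and B apart from C and D. It read 9.82 and 9.93 in mouse A, 9.88 and 9.84 for B, 10.50 and 10.50 for C and 10.27 and 10.22 for D, with overexpressing and depleted targets. Mice A and B overlapped, and both arrays of C stood above all others. Its range between mice, 0.64 or 1.56-fold, was the widest of the 28 (F test adjusted p = 8.83e-05). Against the other 3 mice it was called lower in A (-0.33) and B (-0.35) and higher in C (0.51) and D (0.17). The call in B was lost without mouse C, and that in D without A or B.

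The kinases that hold pyruvate dehydrogenase inactive went in opposite directions. Pdk1 read 10.25 with each target in mouse A, 10.71 and 10.57 in B, 10.61 and 10.65 in C and 10.63 and 10.60 in D. Mouse A was below all others, at -0.37 (SE 0.042, limma adjusted p = 0.000259) or 1.29-fold. Pdk3 read 10.88 and 10.80 in mouse A, 10.60 and 10.62 for B, 10.58 and 10.60 for C and 10.72 and 10.71 for D. Mouse A was above all others, by 0.20 (SE 0.036, limma adjusted p = 0.00315) or 1.15-fold. A second Pdk1 probe set was also lower in mouse A, at -0.59.

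Other flux and side-path genes split as well. Bpgm, which makes the bisphosphoglycerate of red cells, was higher in mouse A by 0.21 (SE 0.066, limma adjusted p = 0.0391), while the 3 measured erythroid markers had a mean of 5.72 in A and 5.64 to 5.78 in the others. Bpgm did not pass the F test over the 4 mice (adjusted p = 0.0947). Slc16a1 was higher by 0.11 (SE 0.037, adjusted p = 0.0459), with overlap. Without mouse C or D both calls were lost, at adjusted p = 0.113 and 0.0647 for Bpgm and 0.277 and 0.0900 for Slc16a1. Slc16a3, the lactate exporter MCT4, read 8.76 and 8.61 in A and 8.72 to 9.08 elsewhere, and its difference of -0.19 (SE 0.081) did not pass (adjusted p = 0.116). Pfkfb3 was lower in A, at -0.21 (SE 0.064, adjusted p = 0.0322), but its values in A and C overlapped, and it differed by -0.093 without mouse B (adjusted p = 0.152).

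**Figure D4:**
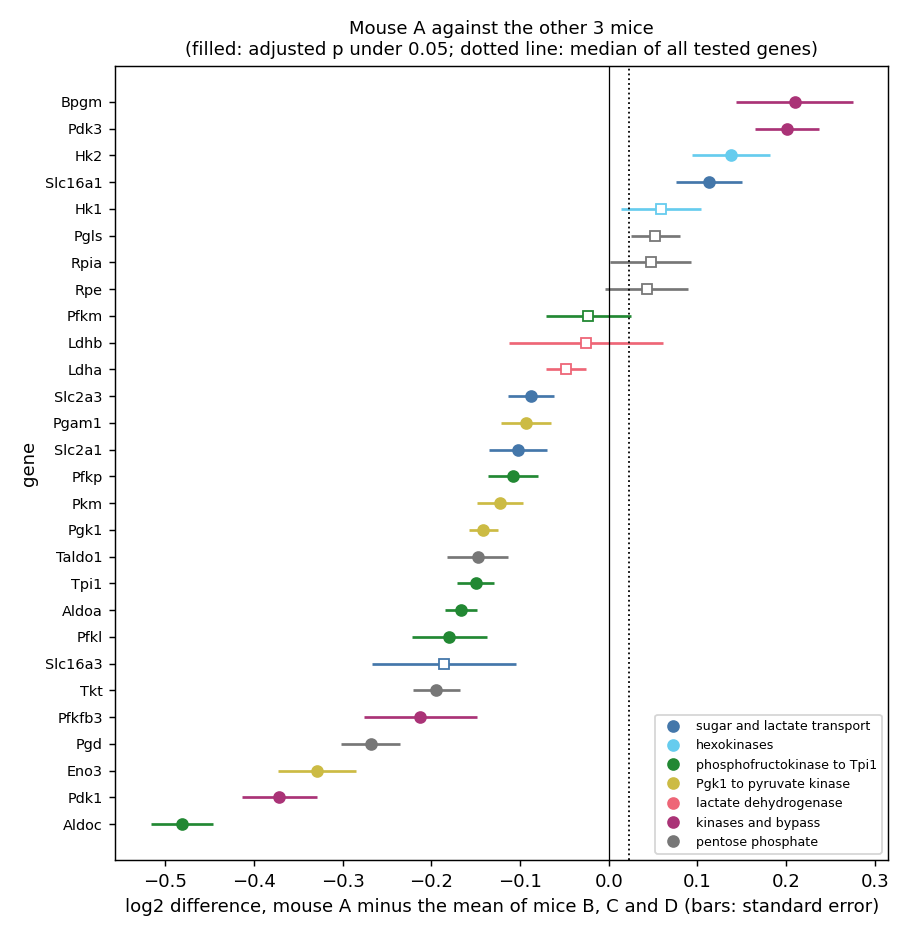
Log2 difference of mouse A from the mean of mice B, C and D for the 28 tested genes, sorted, with bars of 1 standard error; colours give the role and filled symbols an adjusted p under 0.05. The dotted line is the median of all tested genes, 0.022; 16 filled points lie to the left of 0 and 4 to the right.

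In the pentose phosphate pathway 3 of 6 tested genes were lower in mouse A and 0 higher, against 12.7% and 18.1% of all genes. Pgd, the phosphogluconate dehydrogenase of the oxidative branch, read 10.71 and 10.74 in mouse A, 10.97 and 10.96 for B, 10.92 and 10.97 for C and 11.07 and 11.06 for D. Mouse A was the lowest and mouse D the highest, without overlap, with differences from the other mice of -0.27 (SE 0.033, limma adjusted p = 0.000401) and 0.19 (SE 0.033, adjusted p = 0.00849). Tkt, transketolase, read 13.41 and 13.42 in mouse A, 13.60 and 13.56 for B, 13.59 and 13.65 for C and 13.67 and 13.61 for D. It was lower in mouse A, at -0.19 (SE 0.026, limma adjusted p = 0.000721). Taldo1 was lower in A, at -0.15 (SE 0.035, adjusted p = 0.0114), and higher in D, by 0.16 (SE 0.035, adjusted p = 0.0199). The call in A was lost without mouse D (adjusted p = 0.130). Pgls, which opens the lactone, and Rpia and Rpe, which interconvert pentose phosphates, differed in A by 0.052, 0.047 and 0.043, and none of the 3 passed there (adjusted p from 0.188 to 0.532).

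Genes with several probe sets gave the same direction in mouse A. Of the 20 genes called there, 11 had other single-symbol probe sets above the filter, 20 in all, and 20 of these 20 had the sign of the probe set that stood for the gene. When all probe sets of a gene were averaged instead, the same 16 genes were called lower and the same 4 higher. Some probe sets of Slc2a3, Aldoa, Tpi1, Pgk1, Ldhb, Pgd and Tkt are of a type whose probes can match related sequences. Readings from processed gene copies therefore cannot be told apart from those of the gene.

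The other mice differed from the rest in fewer of these genes, and since each contrast shares arrays with the others, the values are given side by side. Mouse B had 6 of 28 genes higher and 1 lower, against 6.3% and 2.96% of all genes. Pfkfb3 was the highest there, at 9.51 and 9.60, 1.31-fold above the other mice (0.39, SE 0.064, limma adjusted p = 0.00677). A dimmer Pfkfb3 probe set, also above the filter, read 7.38 and 7.42 in mouse B, under 1 array of mouse C at 7.45. Hk1 was higher by 0.17 (SE 0.046), Slc2a1 by 0.14 (SE 0.033) and Pfkl by 0.20 (SE 0.042). Aldoc, at 0.26, and Aldoa, at 0.088, were also called higher. Without mouse A, 4 of these 6 calls were lost, namely Slc2a1, Pfkl, Aldoc and Aldoa (adjusted p = 0.0823, 0.0817, 0.147 and 0.270). The Hk1 call was lost without mouse C or D, the Slc2a1 call also without D, and the lower call of Eno3 without C. Pfkfb3 kept its call without any 1 of the other mice.

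Mouse C had 3 genes higher and 1 lower, against 3.09% and 5.35% of all genes. Slc2a3 read 13.93 and 13.90 in mouse C, 13.71 and 13.61 in A, 13.67 and 13.69 in B and 13.64 and 13.65 in D. Mouse C stood above all others, by 0.26 (SE 0.026, limma adjusted p = 0.000547) or 1.19-fold. Eno3 and Pgk1 were the other genes higher there, and Slc16a1 was lower, at -0.16 (SE 0.037). Without mouse A the calls of Pgk1 and Slc16a1 were lost (adjusted p = 0.255 and 0.0922), and Slc16a1 also lost its call under quantile normalisation and without a trend of variance with level. Mouse D had 3 genes higher, Eno3, Pgd and Taldo1, and 1 lower, Slc2a3, against 4.56% and 4.09% of all genes. These counts moved with the mice left in: without mouse B, 8 genes were higher in C and 10 in D, and without mouse A, 2 were higher in B and 0 in D. In D the calls of Eno3, Pgd and Taldo1 were lost without A, that of Eno3 also without B, and that of Slc2a3 without C.

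Without mouse A, and so with 6 arrays, 4 of the 28 genes passed the F test, where 7.2% of all genes did. These were Eno3, Slc2a3, Hk1 and Pfkfb3. The range of Slc2a3 over the remaining mice was 0.27 and that of Pfkfb3 0.40. Aldoc, Pdk1, Pgd and Tkt, each far from the others in mouse A, did not pass among mice B, C and D.

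**Figure D5:**
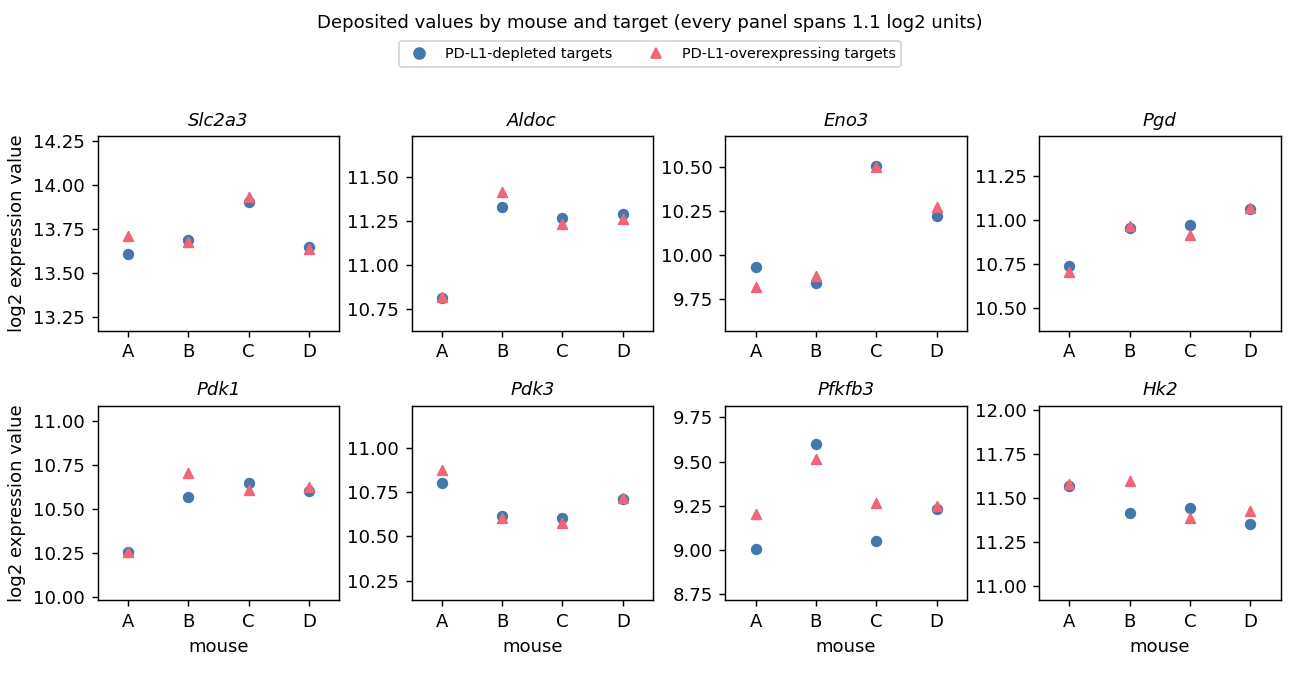
Deposited log2 values of 8 genes in mice A to D, with PD-L1-depleted targets as blue circles and PD-L1-overexpressing targets as red triangles; each panel spans the same width. The 2 arrays of an animal lie close together for most genes, with mouse A low for Aldoc, Pgd and Pdk1, high for Pdk3, and mouse C high for Slc2a3 and Eno3.

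Promoter sequences are shown for 4 genes called in mouse A, Aldoc and Pdk1 among those lower and Pdk3 and Hk2 among those higher, because the members moved together or apart in that animal. Capitals mark each match to ACGTG or GCGTG on either strand, the core bound by the hypoxia-inducible factor, which is known to activate many glycolytic genes. The sequences are RefSeq's for build GRCm38.p6, 250 bases before to 50 after the start site that lies farthest upstream, 5′ to 3′ on the gene's strand. They lie at chr11:78322823-78323122 (plus strand), chr2:71872974-71873273 (plus strand), chrX:93832101-93832400 (minus strand) and chr6:82774405-82774704 (minus strand).
Aldoc: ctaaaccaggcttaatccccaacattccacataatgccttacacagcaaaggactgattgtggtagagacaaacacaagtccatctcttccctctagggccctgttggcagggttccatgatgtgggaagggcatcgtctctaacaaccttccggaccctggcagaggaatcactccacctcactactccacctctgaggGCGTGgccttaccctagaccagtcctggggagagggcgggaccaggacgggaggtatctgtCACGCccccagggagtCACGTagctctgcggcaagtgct
Pdk1: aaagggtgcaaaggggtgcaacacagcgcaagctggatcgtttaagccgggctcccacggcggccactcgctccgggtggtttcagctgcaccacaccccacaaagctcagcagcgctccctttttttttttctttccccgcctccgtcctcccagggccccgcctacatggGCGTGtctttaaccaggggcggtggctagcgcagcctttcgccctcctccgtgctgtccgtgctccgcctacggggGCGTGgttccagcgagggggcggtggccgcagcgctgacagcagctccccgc
Pdk3: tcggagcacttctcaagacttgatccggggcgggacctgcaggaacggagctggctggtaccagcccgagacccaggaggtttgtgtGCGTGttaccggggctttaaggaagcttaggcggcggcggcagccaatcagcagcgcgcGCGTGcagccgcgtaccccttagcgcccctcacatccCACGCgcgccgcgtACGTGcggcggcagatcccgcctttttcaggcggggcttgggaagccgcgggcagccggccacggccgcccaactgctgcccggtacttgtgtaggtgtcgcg
Hk2: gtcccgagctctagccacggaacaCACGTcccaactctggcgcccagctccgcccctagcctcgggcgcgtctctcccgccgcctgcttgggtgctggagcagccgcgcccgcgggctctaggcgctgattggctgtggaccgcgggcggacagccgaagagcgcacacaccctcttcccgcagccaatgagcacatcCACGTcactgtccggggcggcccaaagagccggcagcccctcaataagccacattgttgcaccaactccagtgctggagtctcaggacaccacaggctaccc

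Of the 31 measured genes 30 had a promoter in the table, with 43 start sites. A match to ACGTG or GCGTG stood in 31 of these 43 promoters (72.1%), against 43.8% of all 32851 promoters of the same length. Several of the 43 overlap, and the motif holds a CpG, so base composition is shared with it. By gene, counting any start site, a match stood in 25 of 30 members (83.3%) and in 46.7% of 27025 genes. It stood in 14 of 15 genes called lower in mouse A and in 3 of 4 called higher. The E-box CACGTG, which contains ACGTG on each strand, stood in 5 of the 43 promoters (11.6%) and in 7.15% of all. These matches describe the letters of the window and were not related to the values by any test.

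Counts for genes around the pathway in mouse A are read against all genes tested, of which 18.1% were higher and 12.7% lower. Of 6 tested genes for the entry of pyruvate into mitochondria 2 were higher in mouse A and 0 lower, too few to set against those shares. These were Mpc1, a subunit of the mitochondrial pyruvate carrier, at 0.21 (limma adjusted p = 0.000806), and Dld, a subunit of pyruvate dehydrogenase, at 0.21 (adjusted p = 0.00379). Of 17 tested genes on branches off glycolysis 5 were higher and 2 lower, the lower count being near the share over all genes. Psph, the last enzyme of serine synthesis, was higher by 0.47, Got1, the cytosolic aspartate aminotransferase, by 0.32 and Psat1, also of serine synthesis, by 0.19. Pgm1, phosphoglucomutase, was lower, at -0.35 and Pgp at -0.22.

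Among 16 tested regulators of glycolytic genes 3 were higher in mouse A and 1 lower, near or under the shares over all genes. Irf4, a transcription factor induced by receptor signalling, was higher by 0.30, Egln3, an oxygen-sensing hydroxylase, by 0.15 and Mtor by 0.17. Bnip3, a mitochondrial protein induced by hypoxia, was lower, at -0.10. Egln3 was also higher in mouse B, by 0.17 (limma adjusted p = 0.0148), and lower in mouse D, at -0.27. Mtor did not pass the F test over the 4 mice (adjusted p = 0.0881). Hif1a differed by 0.077 (limma adjusted p = 0.0792) and Myc by 0.030 (adjusted p = 0.650), and neither passed. In mouse B, 5 of the 16 were higher and 0 lower, against 6.3% and 2.96% of all genes, among them Myc at 0.21 and Txnip, which curbs glucose uptake, at 0.22. Of 10 other tested sugar genes 2 were higher and 1 lower in mouse A, near the shares over all genes. Between targets, limma called 0 genes of any of these 4 lists.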

How the data were processed

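RNA of 8 samples was labelled for an Affymetrix 3' expression array, per the labels' protocols. The deposited table gives 1 log2 value per probe set and array; that the scale is log2 rests on the range of the values (3.60 to 15.24), and the authors' summarisation and normalisation are not given in the sources used here. Sorted values of the arrays lay within 0.167 at each rank, so a shift shared by most genes could be hidden. Of 22690 probe sets, 64 controls were left out; 20380 others carried 1 symbol, 691 several and 1555 none. Genes with a mean under 6.87 (40th percentile) were not tested. Genes were tested across the whole table with limma 3.58.1 in R 4.3.3 (lmFit, eBayes with a trend), Benjamini-Hochberg threshold 0.05. The target comparison was paired by mouse (a fixed term), since the design text says that the cells of 4 mice were split over the targets and sample titles carry the mouse letter. The 2 arrays of an animal deviated together from their group means, with correlations of 0.82 (A), 0.16 (B), 0.61 (C) and 0.64 (D). Whether arrays came from separate cultures is not stated beyond the mouse, so p-values measure the spread between these samples. Mice were compared by a moderated F test and as 1 mouse minus the mean of the other 3, with target as covariate. In simulated data with known answers, of genes changed by 0.25 on the log2 scale, 62.7% were recovered between targets and 52.2% for mouse A. Of those changed by 0.5, 89.6% and 88.1% were recovered, with 4 and 3 false calls in 8003 genes. Those data had independent noise around each gene's mean, with no differences between mice and no shifts shared by genes of an array. The shares recovered therefore need not hold for the arrays themselves. Members, lists and comparisons were chosen with earlier results of these data known. Genes named with all values are the 6 with the smallest p between targets and the 12 with the smallest F test p; others are counted or named as members of the lists. Alternatives were no block or a random block for the mouse, median centring, quantile normalisation, no filter or a 60th percentile filter, averaging all probe sets of a gene, eBayes without a trend, and leaving out each mouse. The table held 0 columns of other samples.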

Additional observations from a re-analysis of the deposited data

Results flagged for a closer look

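For the 31 measured genes and 5 marker lists, an array was singled out where its distance to the next array took up most of the spread of the 4 arrays with the same target (Dixon's ratio). This happened in 6 of 72 sets of 4 arrays, and about 1 in 20 would by chance. With PD-L1-depleted targets mouse A was lowest for Aldoc (0.887) and Tpi1 (0.8293) and highest for Pdk2 (0.848), which lay under the filter. With these targets mouse B was highest for Ldhb (0.859) and mouse D lowest for Pgls (0.855). With PD-L1-overexpressing targets the CD8 T cell marker mean was lowest in mouse A (0.860). The causes were not tested.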

How the results depend on the processing

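Between targets 0 of the members were called under each alternative run that kept the 4 mice, including the fit with no replicate block and the random block; leaving out each mouse gave 0 to 1, the 1 being Ldhb without mouse B. The 20 calls of mouse A kept their direction under each alternative that tested them. Quantile normalisation gave 0 members lower in mouse C and 2 in D. Median centring gave 10 higher in B, 2 lower in C and 3 lower in D. No filter gave 2 higher in A, of which 1, Pdk3, was shared with the main run. The other was Eno2, which the filter had left out. The calls of Bpgm, Hk2, Slc16a1 and Slc2a1 in A were lost without a filter. The 60th percentile filter gave 2 lower in C and 5 higher in D, and left Bpgm untested. Averaging all probe sets of a gene gave 5 higher and 2 lower in C and 6 higher in D. Without a trend in eBayes the F test called 7 members, with 2 higher and 10 lower in A, 2 higher in B, 0 lower in C, and 1 higher and 0 lower in D. Leaving out each mouse in turn gave 4 to 20 members for the F test, the lowest without mouse A. It gave 1 to 5 higher and 12 to 15 lower in A, 2 to 7 higher and 1 to 2 lower in B, 2 to 8 higher and 0 to 4 lower in C, and 0 to 10 higher and 1 to 3 lower in D. The causes were not tested. The number of arrays limits the precision of the smaller differences.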
